A study of Mus musculus with 8 samples.

Results

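Csf1r, Cx3cr1, Ms4a7, C1qa, C1qb, C1qc, Apoe and F13a1 are transcripts by which monocytes and interstitial macrophages, the macrophages that lie between the airspaces and vessels of the lung, are commonly recognized. All 8 were measured here in preparations labelled as lung neutrophils, 1 row for each gene among 24625 rows in all. The genes were taken by symbol. The question was whether transcripts of these mononuclear phagocytes differed between neutrophil preparations from infected and uninfected lungs. Wild type mice (6 to 12 weeks of age per the labels, a narrower range per the study's methods) were instilled through the trachea, into the left lung, with 2.3 µl per g of body weight of either phosphate-buffered saline (PBS, 4 samples) or a suspension of Streptococcus pneumoniae (SP, 4 samples), the pneumococcus. Neutrophils were pulled from enzyme-digested lungs 24 h later with magnetic beads that bind Ly6G, a surface protein of mouse neutrophils. Per the study's methods, purity was judged on stained cells from infected lungs, where it was high. The few other cells there mostly looked like alveolar macrophages and seldom like eosinophils. The methods also state that Ly6G transcripts were high in all samples. How pure the PBS preparations were was not given. The study describes each sample as coming from a mouse, and the p-values measure the spread between these arrays.

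Monocytes enter an infected lung from the blood and can become macrophages there, whereas interstitial macrophages already live in the tissue. CSF1R is the receptor for the growth factors CSF1 and IL-34, on which most monocytes and macrophages depend, and CX3CR1 is the receptor for fractalkine that marks patrolling monocytes and many tissue macrophages. C1QA, C1QB and C1QC are the chains of C1q, which starts the classical complement pathway and coats dying cells, apolipoprotein E carries lipid out of macrophages, MS4A7 is a membrane protein of macrophages, and F13A1 is the subunit of coagulation factor XIII that cross-links fibrin. Each sample was a mixture of all cells that the beads retained, so that fewer cells of a type and less RNA per cell cannot be told apart, nor can the cells that carried a transcript.

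Sequence around the transcription start is shown for the C1q genes, because their transcripts varied together, and for Ms4a7 and F13a1, because they were the 2 markers called higher in SP. RefSeq windows of the mouse build GRCm38.p6, from 250 bases before to 50 bases after a start, were at hand for 6 of the 8 genes (10 windows). None was at hand for Csf1r or C1qa. C1qb and C1qc read from the minus strand of chromosome 4, at chr4:136886151-136886450 and chr4:136892865-136893164. The windows shown for F13a1 (chr13:37050195-37050494) and Ms4a7 (chr19:11336097-11336396), also on the minus strand, are those of the most upstream of their 2 listed starts. Each is written 5′ to 3′ along the gene. Capitals mark 3 motifs searched on both strands, GAGGAA (a core of sites for PU.1, the main myeloid transcription factor), TGCTGA (a core of sites for MAF factors) and GAAANNGAA (a core of the interferon-stimulated response element).
C1qb: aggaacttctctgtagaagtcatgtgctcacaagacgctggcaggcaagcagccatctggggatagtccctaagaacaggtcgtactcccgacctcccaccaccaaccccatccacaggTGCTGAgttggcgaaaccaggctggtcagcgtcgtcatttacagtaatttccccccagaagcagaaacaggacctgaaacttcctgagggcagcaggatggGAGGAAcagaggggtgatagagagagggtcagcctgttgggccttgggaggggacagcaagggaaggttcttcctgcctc
C1qc: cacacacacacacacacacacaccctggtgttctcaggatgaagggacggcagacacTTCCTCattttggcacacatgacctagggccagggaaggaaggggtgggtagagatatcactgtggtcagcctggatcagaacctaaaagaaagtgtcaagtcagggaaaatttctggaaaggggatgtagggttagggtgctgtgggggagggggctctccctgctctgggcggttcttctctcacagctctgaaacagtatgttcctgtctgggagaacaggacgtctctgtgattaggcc
F13a1: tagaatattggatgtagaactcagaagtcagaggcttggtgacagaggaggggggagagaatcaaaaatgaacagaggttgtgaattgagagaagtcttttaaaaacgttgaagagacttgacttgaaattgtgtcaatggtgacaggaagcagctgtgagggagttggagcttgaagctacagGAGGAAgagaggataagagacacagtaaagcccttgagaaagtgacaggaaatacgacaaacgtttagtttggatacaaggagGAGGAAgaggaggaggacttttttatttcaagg
Ms4a7: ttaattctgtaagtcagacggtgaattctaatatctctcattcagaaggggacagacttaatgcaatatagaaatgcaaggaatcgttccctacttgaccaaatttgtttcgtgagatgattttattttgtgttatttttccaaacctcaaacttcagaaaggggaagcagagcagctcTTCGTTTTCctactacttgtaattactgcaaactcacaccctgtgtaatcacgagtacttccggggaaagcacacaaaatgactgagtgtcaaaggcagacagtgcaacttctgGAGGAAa
The letters GAGGAA occurred in all 4 of these windows, first at 30 bases before the start of C1qb, at 193 bases before that of C1qc on the opposite strand, at 66 bases before that of F13a1 and at 43 bases after that of Ms4a7. They are common, being found in 28.3% of 32851 mouse windows of the same length. C1qb also held TGCTGA at 131 bases before its start (19.5% of windows), and Ms4a7 held GAAANNGAA on the opposite strand at 71 bases before its start (8.56%). These are matches of letters and not binding sites, and no overlap between motifs was seen among the matches shown.

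Before the comparison, the arrays were checked against their label. Markers of neutrophils averaged 12.25 to 12.50 (log2 units, 11 genes) on the PBS arrays and 11.87, 11.69, 12.84 and 12.05 on SP arrays 1 to 4. SP replicates 1, 2 and 4 thus lay below every PBS array. Of the 11 genes, 3 were called lower in SP and none higher (8 lower without SP replicate 3). The shares over all rows were 22.6% lower and 21.5% higher. These genes varied unequally. Camp ran from 7.07 to 10.94 over the arrays, Ltf from 9.69 to 12.10 and Ngp from 10.62 to 13.34. Csf3r stayed within 12.67 to 13.13, S100a8 within 12.79 to 13.32 and Lcn2 within 13.21 to 13.65. The 3 Y-linked genes lay at 4.33 to 4.90 and were taken as a level of background, which assumes female mice. The study's methods name purchased females, colonies raised from them, and matching of the studied mice by sex. Other lung cells were visible too. Epithelial markers averaged 11.35 to 11.88 in PBS and 9.68 to 10.42 in SP, with 9 of 9 lower in SP, and 7 of 8 endothelial and 6 of 6 B cell markers were lower as well, with the same counts without SP replicate 3. Other lists were less uniform. Of 11 dendritic cell markers, 1 was higher and 3 lower (1 and 2 without SP replicate 3). Of 8 fibroblast markers, none was higher and 2 lower (the same without it). Of 10 platelet markers, none was higher and 2 lower (3 lower without it). Of 6 T cell markers, 1 was higher and none lower (2 higher without it). Of 6 eosinophil markers, 2 were higher and 1 lower, and of 6 NK cell markers none was called, both the same without it. SP replicate 3 stood apart from its group, at a root-mean-square distance of 0.50 from the other SP arrays (0.21 to 0.38 for the other 7 arrays). It had the highest neutrophil mean of all arrays and the lowest epithelial, endothelial, fibroblast and alveolar macrophage means, so the differences of the 8 markers and the counts of each list are given with and without it. The part of these other cells in the results was not tested. With 4 arrays in a group, every difference is known only as closely as its interval shows.

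Of the 8 markers, F13a1 and Ms4a7 were called higher in SP (adjusted p of at most 0.05 by limma, over all rows), both by at least 2-fold, and none was called lower. The 6 others were not called, 3 with a value higher and 3 with a value lower in SP. Over all rows, 44.1% were called, 21.5% higher and 22.6% lower, and at 2-fold 6.37% were higher and 11.3% lower. A share of 25% called among the markers was thus below the share of all rows, and the median difference of the 8 markers, 0.08 on the log2 scale, was close to that of all rows, 0.10. Without SP replicate 3, 3 markers were called higher and the median was 0.49. Groups did not overlap for 1 marker, F13a1, whereas this was so for 49.0% of all rows. No marker fell to the Y-linked level on any array, the lowest value being 5.98. Log2 values of different genes come from different probes and are not compared with each other here.

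**Figure D1:**
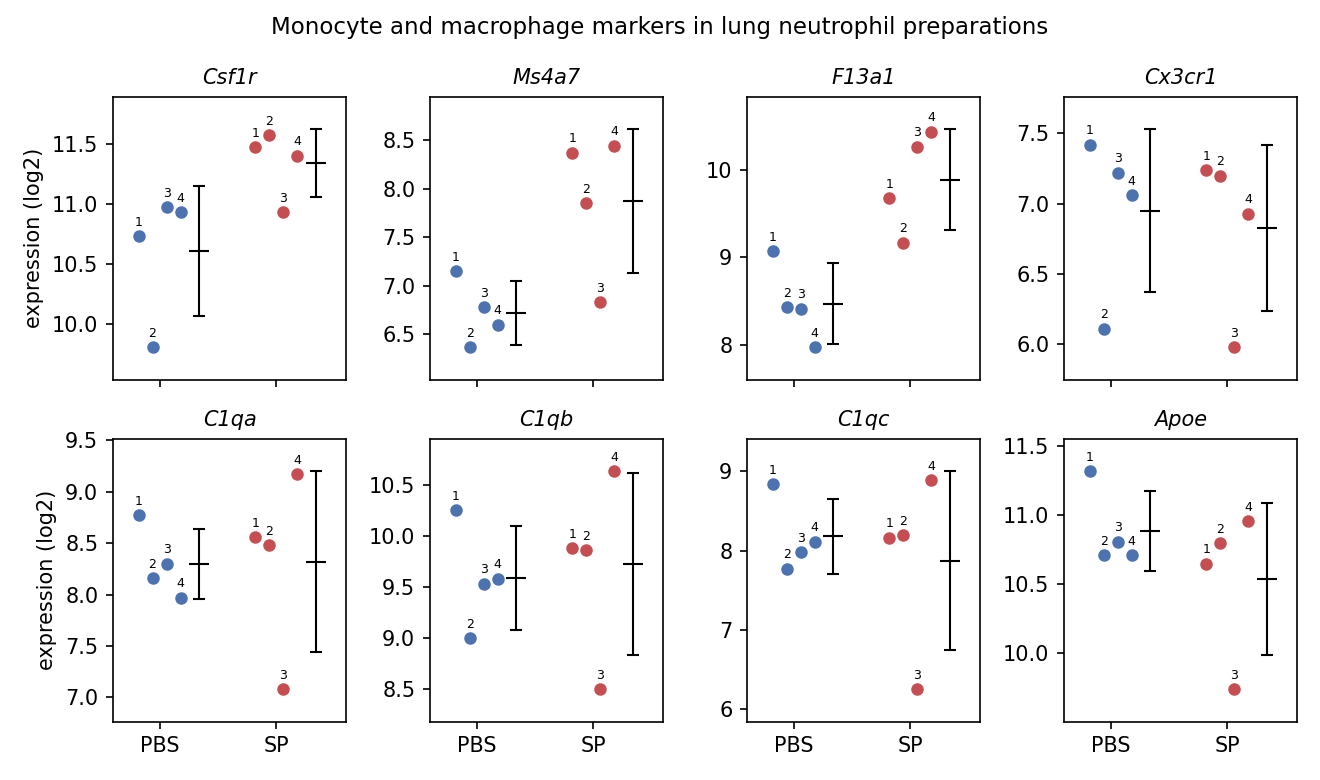
Expression (log2) of the 8 markers on each array, with PBS in blue and SP in red; small figures are replicate numbers and the black bars give mean ± SD (n = 4), and each panel has its own axis that does not start at 0. Only F13a1 separates the groups, and SP replicate 3 is the lowest SP array for every marker except F13a1.

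The receptors came first. Csf1r (NM_001037859) read 10.73, 9.81, 10.97 and 10.93 on PBS arrays 1 to 4 and 11.47, 11.57, 10.93 and 11.40 on the SP arrays. SP replicates 1, 2 and 4 lay above every PBS array, while replicate 3 lay level with PBS replicates 3 and 4, and PBS replicate 2 was the lowest of all. The means were 10.61 ± 0.54 (SD, n = 4) and 11.34 ± 0.28 (SD, n = 4), a difference of 0.73 (SE 0.27, 95% confidence interval 0.12 to 1.34) that missed the threshold with an adjusted p of 0.0547 by limma. Csf1r passed it without SP replicate 3 (difference 0.87, adjusted p = 0.0379 by limma) and without PBS replicate 3 (0.85, adjusted p = 0.0494 by limma), and also when each array was centred on its median, where the difference was 1.01 (adjusted p = 0.00883 by limma). Without PBS replicate 2 the difference was 0.46.

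Cx3cr1 (NM_009987) gave 7.42, 6.11, 7.22 and 7.06 in PBS and 7.24, 7.20, 5.98 and 6.93 in SP. The groups covered almost the same span, each with 1 array near 6 and the others near 7. Its means of 6.95 ± 0.58 (SD, n = 4) and 6.83 ± 0.59 (SD, n = 4) differed by -0.12 (SE 0.36, adjusted p = 0.785 by limma), with a 95% interval from -0.93 to 0.70 that leaves a difference in either direction possible. Without SP replicate 3 the sign turned, to 0.17 (adjusted p = 0.658 by limma), as it did with arrays centred (0.16) and with another quantile normalization (0.23).

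Both called markers rose by a similar amount but with unequal firmness. F13a1 (NM_001166391) read 9.07, 8.43, 8.41 and 7.97 in PBS and 9.68, 9.17, 10.27 and 10.44 in SP. Every SP array was above every PBS array, the nearest pair being PBS replicate 1 and SP replicate 2. Its mean went from 8.47 ± 0.46 (SD, n = 4) to 9.89 ± 0.58 (SD, n = 4), which is 1.42 on the log2 scale (SE 0.32) or 2.68-fold (95% interval 1.61 to 4.44), with an adjusted p of 0.00777 by limma. F13a1 was called under every alternative tried and with each of the 8 arrays left out, at differences of 1.24 to 1.66, and at 1.29 without SP replicate 3 (adjusted p = 0.0199 by limma).

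Ms4a7 (NM_001025610) read 7.15, 6.37, 6.78 and 6.60 in PBS and 8.37, 7.85, 6.83 and 8.44 in SP. SP replicates 1, 2 and 4 were clear of the PBS arrays, and replicate 3 fell among them. The mean went from 6.72 ± 0.33 (SD, n = 4) to 7.87 ± 0.74 (SD, n = 4), a difference of 1.15 (SE 0.35) or 2.22-fold (95% interval 1.27 to 3.86), with an adjusted p of 0.029 by limma. It was 1.5 without SP replicate 3 (adjusted p = 0.00133 by limma). The call was lost without PBS replicate 2, 3 or 4 or SP replicate 1, 2 or 4 (adjusted p 0.0538 to 0.0767 by limma, differences 0.96 to 1.17), and under the methods' t-test (adjusted p = 0.0645).

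**Figure D2:**
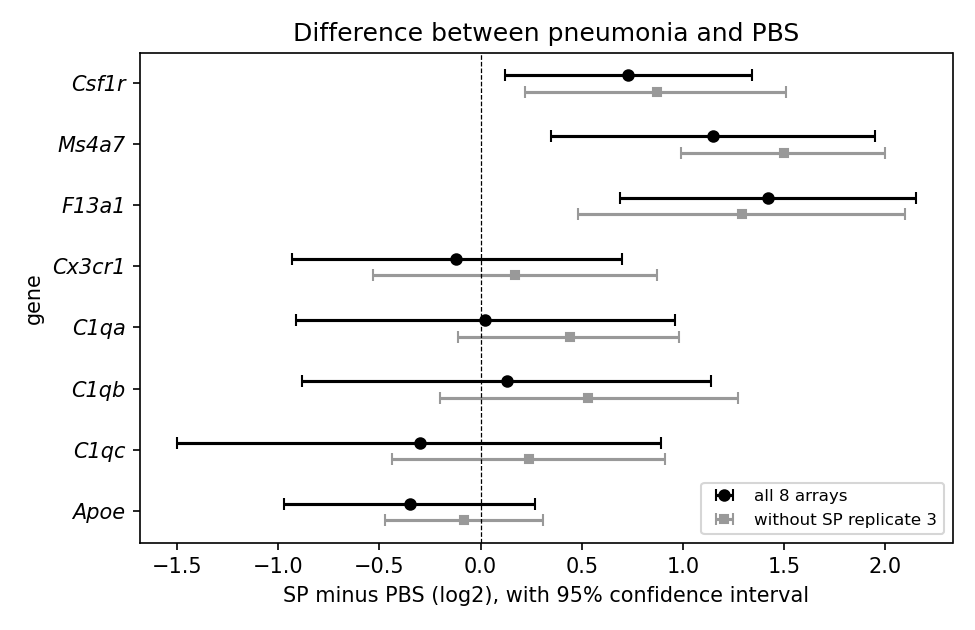
Difference between SP and PBS (log2, horizontal axis) with its 95% confidence interval from limma for each marker, with all 8 arrays (black circles) and without SP replicate 3 (grey squares). The intervals of F13a1, Ms4a7 and Csf1r lie above 0 both ways, although Csf1r with all arrays has an adjusted p of 0.0547, and those of the other 5 markers span 0.

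The 3 chains of C1q were not called. C1qa (NM_007572) read 8.77, 8.16, 8.30 and 7.97 in PBS and 8.56, 8.48, 7.08 and 9.17 in SP. C1qb (NM_009777) read 10.25, 9.0, 9.53 and 9.58 in PBS and 9.88, 9.86, 8.50 and 10.63 in SP. C1qc (NM_007574) read 8.84, 7.77, 7.98 and 8.11 in PBS and 8.16, 8.19, 6.25 and 8.89 in SP. For each chain the lowest and the highest of the 4 SP arrays were replicates 3 and 4, and the PBS values lay between these, so the groups overlapped completely. The differences were 0.02 (SE 0.41) for C1qa, 0.13 (SE 0.44) for C1qb and -0.30 (SE 0.52) for C1qc, with adjusted p of 0.963, 0.815 and 0.633 by limma. Their 95% intervals, -0.91 to 0.96, -0.88 to 1.14 and -1.50 to 0.89, do not exclude a change of nearly 2-fold in either direction. All 3 differences were positive without SP replicate 3, at 0.44, 0.53 and 0.24, and none was called (adjusted p 0.159, 0.197 and 0.516 by limma). Without SP replicate 4 all 3 were negative, at -0.26, -0.18 and -0.64.

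The C1q chains followed each other across arrays more closely than they followed the groups. After each gene was centred on its own mean, C1qa and C1qb differed by a root-mean-square of 0.22 over the 8 arrays, and C1qc differed by 0.28 from either, while their ranges were 2.09 (C1qa), 2.14 (C1qb) and 2.64 (C1qc). All points share the same arrays, so this describes likeness only. It was not particular to the chains. Among the genes nearest to C1qa, C1qb ranked 6 and C1qc 35, and Apoe lay at 0.30 from C1qa. In the RefSeq table of the mouse genome the 3 genes are direct neighbours. SP replicate 3 lay below the mean of the other SP arrays by 1.66, 1.63 and 2.16 for C1qa, C1qb and C1qc. The mean of fibroblast markers had the same extremes among the SP arrays, 7.01 on replicate 3 and 8.83 on replicate 4, as had interstitial macrophage markers, 7.57 and 8.89. So had epithelial (9.68 and 10.42), endothelial (8.64 and 9.78), alveolar macrophage (7.21 and 7.88) and dendritic cell markers (5.83 and 6.09). The other cell type lists did not have both extremes on these arrays. The part of any of these cells in the C1q values was not tested.

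Apoe (NM_009696) read 11.32, 10.71, 10.81 and 10.71 in PBS and 10.65, 10.80, 9.74 and 10.96 in SP. SP replicate 3 was again the lowest array, and the other SP arrays lay within or just below the PBS range. Means of 10.89 ± 0.29 (SD, n = 4) and 10.54 ± 0.55 (SD, n = 4) differed by -0.35 (SE 0.27, 95% interval -0.97 to 0.27, adjusted p = 0.297 by limma). The difference was -0.08 without SP replicate 3 (adjusted p = 0.693 by limma). SP replicate 3 was the lowest of all 8 arrays for Cx3cr1, Apoe and the 3 C1q chains. For F13a1 it lay 0.50 above the mean of the other SP arrays, whereas for Csf1r and Ms4a7 it lay below that mean by 0.55 and 1.39.

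**Figure D3:**
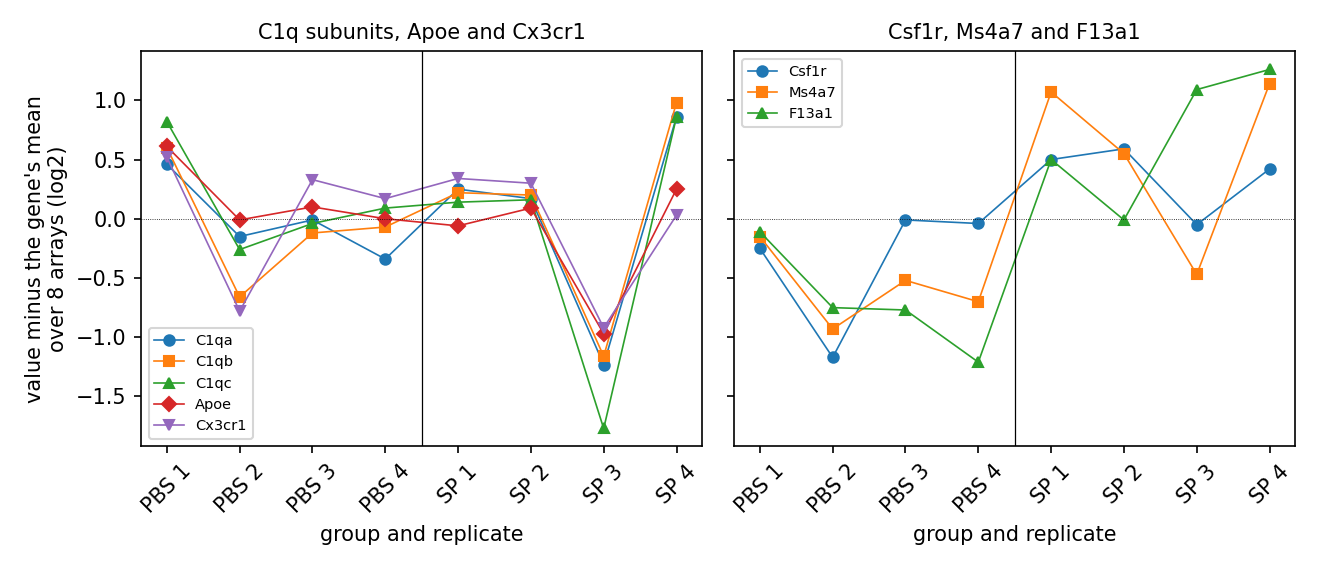
Value of each marker minus its own mean over the 8 arrays (log2, vertical axis) against group and replicate; lines only join the points of a gene, and replicates have no order. On the left the 3 C1q chains run together with a common low at SP replicate 3, which Apoe and Cx3cr1 share; on the right F13a1 is high on that array while Csf1r and Ms4a7 are low among the SP arrays.

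The genes whose profiles over the 8 arrays were most like those of the markers were sought by the same root-mean-square difference of centred values. Csf1r was nearest to Apbb1ip (0.09) and Cxcr4 (0.10), Cx3cr1 to Pld4 (0.18) and Pla2g15 (0.20), and Ms4a7 to Apol9a (0.20) and Ticam2 (0.23). C1qa was nearest to Dab2 (0.18) and Tagln (0.20), C1qb to Tagln (0.21) and Tmem119 (0.22), and C1qc to Scpep1 (0.26) and Col3a1 (0.27). Apoe was nearest to Mrpl11 (0.07) and Ifi30 (0.11), and F13a1 to Cd302 (0.27) and Chil3 (0.29). No marker was among the 2 nearest genes of another.

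Other genes listed as markers of monocytes and macrophages are given next, beside shares of 21.5% higher and 22.6% lower over all rows. Of 10 classical monocyte genes with a row, 8 were higher in SP and none lower, with a median difference of 1.38 with or without SP replicate 3. F10, coagulation factor X, had the largest rise of that list, 40.9-fold, from 6.96 ± 0.38 to 12.32 ± 0.07 (SD, n = 4 each), with an adjusted p of 8.31e-07 by limma. Vcan, a matrix proteoglycan, rose 6.68-fold, Plac8 3.79-fold and Chil3, a chitinase-like protein, 1.95-fold, while the endotoxin co-receptor Cd14 was not called (0.79 on the log2 scale, adjusted p = 0.0684 by limma). Chil3 was no longer called by the methods' t-test, with another quantile normalization, or without PBS replicate 3 or 4 (0.78 at the lowest over single omissions), and Cd14 was called without PBS replicate 3 (adjusted p = 0.04 by limma), with a robust prior, with arrays centred and with dim rows left out.

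Of 9 non-classical monocyte genes, 3 were higher and 1 was lower, with a median of 0.36 (the same counts and 0.47 without SP replicate 3). Treml4 (4.46-fold) and the transcription factor Pou2f2 (2.75-fold) rose, and Ace, which is also an enzyme of lung endothelium, fell by 1.12 on the log2 scale. Of 20 interstitial macrophage genes, 8 were higher and 3 lower, with a median of 0.57 (10 higher and 3 lower without SP replicate 3, and 5 higher by the methods' t-test). The lysosomal protein Cd68 rose 2.5-fold and the chemokine Ccl12 7.16-fold, whereas the mannose receptor Mrc1 fell by 2.70 on the log2 scale. Lyve1, a hyaluronan receptor also of lymphatic endothelium, was called higher at 0.57, a call lost without SP replicate 3 (0.52, adjusted p = 0.0657 by limma), without PBS replicate 2, 3 or 4 or SP replicate 4, and under the methods' t-test and another quantile normalization. The protease Lgmn was 0.82 higher (adjusted p = 0.0886 by limma) and was called without that array (1.21, adjusted p = 0.000415 by limma). Taken over these monocyte and macrophage lists, which were chosen with results of these data known, 19 of 39 genes were higher and 4 lower. This pooled count was not repeated without SP replicate 3. Of 9 alveolar macrophage genes none was higher and 6 were lower, with a median of -1.48 (the same counts and -1.36 without SP replicate 3), among them Ear1 (fell by 1.88), Ear2 (fell by 1.48) and Car4 (fell by 1.25), the last shared with endothelium.

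**Figure D4:**
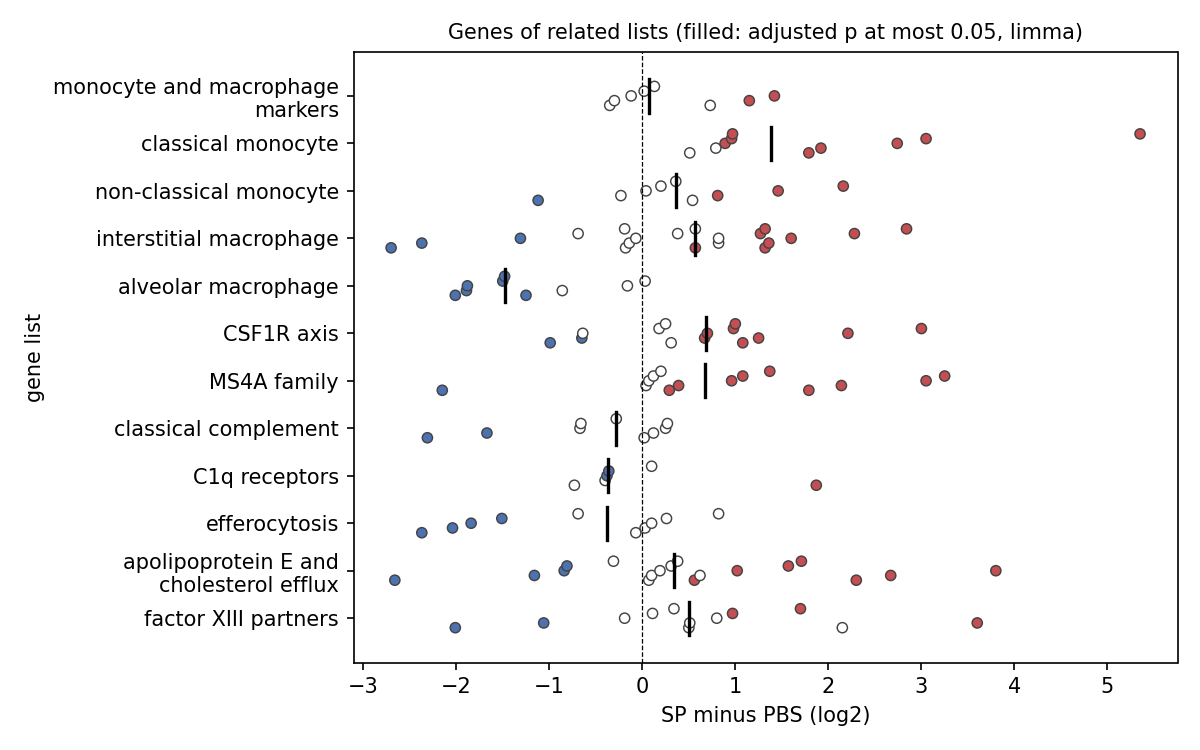
Difference between SP and PBS (log2, horizontal axis) for every gene of the 8 markers and of 11 related lists; red points were called higher, blue points called lower and open points not called (limma, adjusted p of at most 0.05), and black bars are list medians. The marker median is 0.08, that of classical monocyte genes 1.38 and that of alveolar macrophage genes -1.48.

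The counts of the lists that follow stand beside the same shares over all rows, 21.5% higher and 22.6% lower. Around Csf1r, the ligand Csf1 rose in SP and the ligand Il34 fell. Csf1 read 9.14, 8.25, 9.17 and 9.14 in PBS and 12.09, 12.08, 11.48 and 12.06 in SP, which is 8.01-fold (adjusted p = 4.14e-05 by limma). Every SP array was more than 2 log2 units above every PBS array. Il34 fell by 0.99 on the log2 scale, from 7.01 ± 0.29 to 6.01 ± 0.38 (SD, n = 4 each, adjusted p = 0.00631 by limma). Of the 14 ligands, transcription factors and signalling proteins listed for the receptor, 8 were higher and 2 lower (7 and 2 without SP replicate 3). Zeb2, a transcription factor of the monocyte lineage, rose 4.62-fold, the phosphatase Inpp5d 2.11-fold, and Irf8, a factor needed for monocyte formation, 2.37-fold. Irf8 was no longer called by the methods' t-test or without PBS replicate 3 or 4 or SP replicate 1 or 2 (1.06 at the lowest over single omissions). The gene of the Cx3cr1 ligand, Cx3cl1, had no matched row. Of the proteases listed as releasing it or cleaving it, Adam17 rose 3.06-fold and Ctss 4.26-fold, and Adam10 was not called (0.01), with the same counts without SP replicate 3.

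Ms4a7 belongs to a family of proteins that cross the membrane several times. Of 14 family members with a row, 9 were higher and 1 lower, with a median of 0.67 (the same counts and 0.65 without SP replicate 3). Ms4a6d rose 9.51-fold, Ms4a4c 8.28-fold, Ms4a6b 4.4-fold and Ms4a6c 3.46-fold, each with no overlap between groups. Ms4a4d (2.59-fold) and Ms4a4b (2.11-fold) were called too, but neither by the methods' t-test, nor without PBS replicate 2 or 4 or SP replicate 1, and Ms4a4d also without PBS replicate 3 or SP replicate 2 (0.98 for Ms4a4d and 0.89 for Ms4a4b at the lowest over single omissions). Ms4a4c, Ms4a6c and Ms4a8a, all called higher, are also counted among the classical monocyte genes, so the 2 counts are not separate. Ms4a1, which encodes the B cell protein CD20, fell by 2.15 on the log2 scale, and is itself 1 of the 6 B cell markers that were lower. Related members of this family could share probe signal, which was not tested.

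Counts for genes that act with C1q stand beside 21.5% higher and 22.6% lower over all rows. Of 9 other genes of the classical complement pathway, 2 were lower, C2 (fell by 1.67) and C4b (fell by 2.31), which encode the components cleaved after C1q binds, and 7 were not called. Without SP replicate 3, 3 were higher and 2 lower. Among 6 listed receptors and binding proteins of C1q, Lair1, an inhibitory receptor, rose 3.65-fold and 2 were lower by less than 2-fold (1 higher and 1 lower without SP replicate 3). Of 10 genes for the clearance of dying cells, none was higher and 4 were lower. They were Gas6 (fell by 2.37), also counted among the interstitial macrophage genes, and its receptor Tyro3 (fell by 1.51). The others were the bridging protein Mfge8 (fell by 2.04) and the scavenger receptor Cd36 (fell by 1.84). Without SP replicate 3, 2 were higher and 4 lower. Several of these genes are also expressed by endothelium or epithelium, whose markers were lower in SP as given above, and their part in these differences was not tested.

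Of 18 genes of apolipoprotein E handling and cholesterol efflux, 7 were higher and 4 lower (10 and 4 without SP replicate 3), beside an Apoe that was not called. Lrp8, a receptor for apolipoprotein E, rose 13.9-fold, from 7.06 ± 0.29 to 10.85 ± 0.25 (SD, n = 4 each, adjusted p = 4.12e-06 by limma). The cholesterol exporter Abca1 rose 3.27-fold (1.71 on the log2 scale, 1.24 without SP replicate 3) and Nr1h3, the oxysterol receptor that drives it, 4.94-fold, together with the partner receptor Rxra (2.03-fold), Apoc2 (6.36-fold) and the lysosomal lipase Lipa (2.97-fold). Nr1h3 was lowest among SP arrays on replicate 3 (8.18 against 9.86 to 10.31), where Abca1 was highest (11.92 against 9.79 to 10.20). The phospholipid transfer protein Pltp fell by 2.66 on the log2 scale and the receptor Vldlr by 1.16.

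Of 12 genes that act with factor XIII in clotting and clot removal, 3 were higher and 2 lower (6 higher and 2 lower without SP replicate 3). Shares over all rows were 21.5% higher and 22.6% lower. Plau, the urokinase that activates plasminogen, rose 12.1-fold, with PBS arrays at 6.81 to 6.98 and SP arrays at 9.58 to 11.24. The endothelial thrombin receptor Thbd fell by 2.01 on the log2 scale and Vtn, vitronectin, by 1.06. The gene of the carrier subunit of factor XIII, F13b, did not exceed 4.76 on any array, which is within the Y-linked level.

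Scaling mattered for the small differences. The medians of the SP arrays lay 0.28 below those of the PBS arrays on average (-0.28 as SP minus PBS), and centring each array on its median moved the median difference of all rows from 0.10 to 0.38. The called rows then split into 14219 higher and 4036 lower (22.1% lower, against 51.1% without centring and 52.8% with another quantile normalization). At 2-fold the share that was lower went from 63.9% to 44.4% and 53.9%. F13a1 and Ms4a7 were called higher under both of these scalings, by 1.70 and 1.43 after centring, which is 1.32 and 1.05 above the median of all rows with or without centring, and by 1.47 and 1.52 with the other quantile normalization. After centring, the differences of the C1q chains were 0.30, 0.41 and -0.02 and that of Apoe -0.07, none of them called.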

How the data were processed

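Messenger RNA of 8 preparations of mouse lung neutrophils was measured on Affymetrix Mouse Gene 1.1 ST arrays, and groups and replicate numbers were read from the sample titles. The deposited values are on a log2 scale: per the labels and the study's methods, the authors made them by robust multi-array averaging (RMA), with background and GC correction, quantile normalization and median polish, in which probes were consolidated by gene or transcript. Tools named in the submitters' processing notes are Affymetrix Expression Console, RMA and Partek. Quantile normalization makes values relative within an array, so a change in total RNA per cell cannot be read from them.

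Row accessions were matched without versions to RefSeq genes of GRCm38.p6, and 19915 of 24625 rows (80.9%) received a symbol. No coordinates belong to the deposited values, and those printed are of RefSeq promoter windows. Where a symbol had several rows, the row with the highest mean was used, and each of the 8 markers had 1 row. Groups were compared with limma 3.58.1 in R 4.3.3 (lmFit and eBayes, two-sided, no covariates). The p-values were adjusted after Benjamini and Hochberg over the whole table, with a threshold of 0.05 and, for 2-fold calls, a difference of 1 log2 unit. On simulated data, limma recovered 97% of 200 rows changed by 2 log2 units, among 24625 rows, with 10 false calls. Smaller differences, such as those of the 8 markers, were not simulated. Tables and figures were made with Python 3.11.15.

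The comparison of the markers and of all rows was repeated with the methods' t-test (a one-way ANOVA), array weights, a replicate block, an intensity trend with a robust prior, arrays centred on the median, another quantile normalization, leaving out dim rows, 1 row per symbol, and leaving out each array. Counts of the lists were repeated only with the t-test, the centred arrays, the other quantile normalization and without SP replicate 3. The markers, the gene lists and the motifs were chosen with earlier results of these data known, and lists are described by counts and medians without a set test. Some genes stand in more than 1 list, so the list counts are not independent of each other. Partner genes were named where they were called at 2-fold, with the ligands named whatever their call, and cell type genes by highest mean or largest difference. Of Dixon's ratio the critical value for 4 samples, 0.829, was used. The microRNA arrays of the study were not analysed here. One gene of a list is counted but not reported by name here.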

Additional observations from a re-analysis of the deposited data

Results flagged for a closer look

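No value of the 8 markers was flagged. Of 230 groups of 4 arrays tested over the named genes, 16 held 1 array set apart from the other 3 by Dixon's ratio. Chance sets apart about 1 group in 20 where groups are independent, which these are not. Of these arrays, 6 were SP replicate 3, the array on which most markers were lowest, 5 were PBS replicate 2, and 3 were SP replicate 4. All groups come from the same 8 arrays. Apol9a and Ticam2 were named for their likeness to Ms4a7 over these arrays, and Scpep1 for its likeness to C1qc. The tally by array is therefore a description only. SP replicate 3 was low for Csf1 (11.48, the others 12.06 to 12.09), Apoc2 (11.01), Tppp3 (9.17), Apol9a (5.60), Ticam2 (6.07) and Scpep1 (7.52, the others from 9.48). PBS replicate 2 was low for Csf1 (8.25), Lair1 (7.07), F10 (6.40), Cd68 (10.82) and Ticam2 (5.22). SP replicate 4 was high for the macrophage gene Mrc1 (8.40, the others 5.89 to 6.15), and for Car4 (10.84) and Cidec (5.17). PBS replicate 1 was high for Mrc1 (10.01), and PBS replicate 3 was low for Plau (6.81).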

How the results depend on the processing

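F13a1, called higher, and Apoe, not called (-0.51 to -0.07), kept direction and side of the threshold under every alternative run. Csf1r and Ms4a7 kept their direction but not their side, and Cx3cr1 and the C1q chains changed sign but were never called. Csf1r was called with a robust prior (0.73) and with dim rows left out (0.73), with array weights (0.65) and with arrays centred (1.01), and over single omissions its difference ran from 0.46 to 0.87. Ms4a7 was not called under the methods' t-test (1.15) and ran from 0.96 to 1.5. The sign of Cx3cr1 turned with array weights (0.01), centring (0.16) and another quantile normalization (0.23), and its single omissions ran from -0.40 to 0.17, turning without PBS replicate 1 (0.04) and SP replicate 3 (0.17). C1qa ran from -0.26 to 0.44, and was negative without PBS replicate 2 (-0.02) or 4 (-0.09) and without SP replicate 1 (-0.05), 2 (-0.03) or 4 (-0.26). C1qb ran from -0.18 to 0.53, negative without PBS replicate 2 (-0.07) and SP replicate 4 (-0.18), and C1qc from -0.64 to 0.24, positive without SP replicate 3 (0.24). Markers called higher numbered 1 under the methods' t-test and 1 to 3 over single omissions, with 0 called lower throughout. All rows called numbered 18255 with centring, against 10860, since centring adds 1 amount to all SP differences.

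List counts were recomputed by the methods' t-test, with arrays centred and with another quantile normalization, where 27 moved by more than 1.5 times and 105 did not, and without SP replicate 3. By the methods' t-test, 5 interstitial macrophage genes were higher, 1 neutrophil gene was higher and 1 lower, 1 eosinophil gene was higher, 1 fibroblast gene was lower, 5 genes around Csf1r were higher and 1 lower, and 1 C1q receptor gene was lower. With arrays centred, genes called higher numbered 1 for neutrophils, 4 for eosinophils, 3 for T cells, 5 for NK cells, 4 for platelets, 2 for fibroblasts, 2 for classical complement, 2 for clearance of dying cells, 11 for apolipoprotein E and efflux, and 9 for factor XIII partners, and genes called lower 0 for neutrophils, 1 for platelets, 1 around Csf1r and 0 for C1q receptors. With another quantile normalization, 7 neutrophil genes were lower, and 1 gene each was higher for eosinophils, NK cells, platelets and fibroblasts. For the t-test and this normalization the cause was not tested. Without SP replicate 3, genes called lower went from 3 to 8 for neutrophils and from 2 to 1 for C1q receptors, and genes called higher from 3 to 6 for factor XIII partners, 0 to 3 for classical complement, 0 to 2 for clearance of dying cells and 1 to 2 for T cells.

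With the replicate number as a block, 9842 rows and the same 2 markers were called, Ms4a7 at an adjusted p of 0.031 and F13a1 at 0.0254 by limma, and no marker's call changed. Among the other genes named in the report, Chil3, Lyve1 and Ms4a4d were no longer called with the block, and Cd14 was. Same-numbered arrays correlated at 0.0156, 0.0304, 0.3496 and -0.2737 in their deviations from the group means. Differently numbered arrays correlated at -0.3627 to 0.2831. So few correlations cannot settle whether the numbers pair the samples. All values of the 8 markers were above the Y-linked level.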
